A study of Mus musculus with 6 samples.

Results

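Expression of 35 genes of the glutamatergic postsynapse was examined in the cortex of microglia-depleted and control mice. The set comprised every row of the deposited expression table whose symbol belonged to a named list of AMPA, NMDA, kainate and metabotropic glutamate receptor genes and of postsynaptic density scaffold genes. All 35 were present among the 23366 genes of the table, and all 35 passed the filter on low values that left 14385 genes to be tested. Values are FPKM, fragments mapped to a gene, scaled for transcript length and library size. This scaling does not remove effects of GC content or of shared exons, both described below. Levels, shares and sums that set different genes side by side are therefore approximate.

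Frontal cortical tissue came from 3 microglia-depleted mice at day 10 post depletion, named A4, A5 and A6, and from 3 control littermates, A1, A2 and A3. Each mouse gave 1 library. All 6 mice were of C57BL/6 background and carried CX3CR1-CreERT2+/-, in which the CX3CR1 promoter, active in microglia and other myeloid cells, drives a tamoxifen-dependent Cre recombinase, and both genotypes were given tamoxifen. Depleted mice also carried iDTR+/-, a diphtheria toxin receptor released by Cre, and depletion was induced with diphtheria toxin. By the study's account microglia had repopulated the brain by this day. Ages were not given in the sources used here, and the methods do not state whether these control mice received the toxin, so an effect of the toxin and of iDTR cannot be told apart from that of depletion. The question addressed was whether the transcripts of the excitatory postsynapse differed between the groups.

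Glutamate opens AMPA receptors, which carry most of the fast excitatory current, and NMDA receptors, which pass calcium once the membrane is depolarised. Kainate receptors modulate transmission on both sides of the synapse, and metabotropic receptors signal through G proteins. Beneath the membrane, Dlg proteins of the PSD-95 family bind receptor tails, SAPAP proteins encoded by the Dlgap genes link them to Shank proteins, and Homer proteins tie Shank to group I metabotropic receptors.

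The libraries were not alike in ways other than the group. Spacing of low FPKM values placed 14.7, 20.7 and 18.1 M fragments behind the control mice A1, A2 and A3. It placed 13.7 M behind A4 and 11.2 M behind A6, while in A5 values of 7.12 and 10.6 M could not be told apart. By these estimates each depleted library was shallower than each control library, so depth and group cannot be told apart. The tissue carried its defining transcripts: the vesicular glutamate transporter Slc17a7 lay between 325 and 383 FPKM in control and between 343 and 383 FPKM in depleted mice, and the neuronal gene Rbfox3 between 78.0 and 89.4 and between 79.6 and 80.9 FPKM. A4 stood apart. Its interferon regulatory factor Irf7 was at 25.8 FPKM against at most 4.14 in the other mice, the astrocyte filament gene Gfap was at 300 FPKM against at most 120, and 4 Y-linked genes summed to 5.56 FPKM against at most 0.16. Xist was at 4.74 FPKM in A3, at 30.9 FPKM in A4 and between 38.1 and 46.7 FPKM in the other mice. A4 thus held both Y-linked and Xist transcripts, whereas the study describes its mice as sex-matched, and whether this library mixes material of more than 1 animal was not tested. All values of A4 carry this limit, and the main fold changes that rest on A4 are therefore given with and without it.

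No member passed an adjusted p of 0.1 in limma's moderated test of log2(FPKM + 1), with Benjamini-Hochberg adjustment over all genes tested. Of all genes tested, 4 did (0.0278%), and the lowest adjusted p of any member was 0.370. At an unadjusted p under 0.05, 7 members were lower in depleted mice (20.0% of 35, against 5.74% of all genes tested) and 0 were higher (4.79% of all genes). These were Grin2c, Grik5, Dlg4, Dlgap3, Shank1, Shank2 and Shank3. In 6 of them, all but Shank2, every depleted mouse lay below every control mouse (17.1% of members, against 9.38% of all genes), and in 0 members did every depleted mouse lie above (8.21% of all genes). Counting estimates of any size, 26 members were lower on average (74.3%, against 52.0% of all genes tested) and 9 higher. The median log2 fold change of the members was -0.11, beside -0.0085 over all genes tested. Without A2 the count of 7 was 3, and the median was -0.17 without A5 and -0.034 without A4. The 95% interval of the fold change included 0 for 28 members, and its median width was 0.57 on the log2 scale. Because the tissue is bulk cortex, fewer cells of a type and less RNA per cell cannot be told apart in any of these values.

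**Figure D1:**
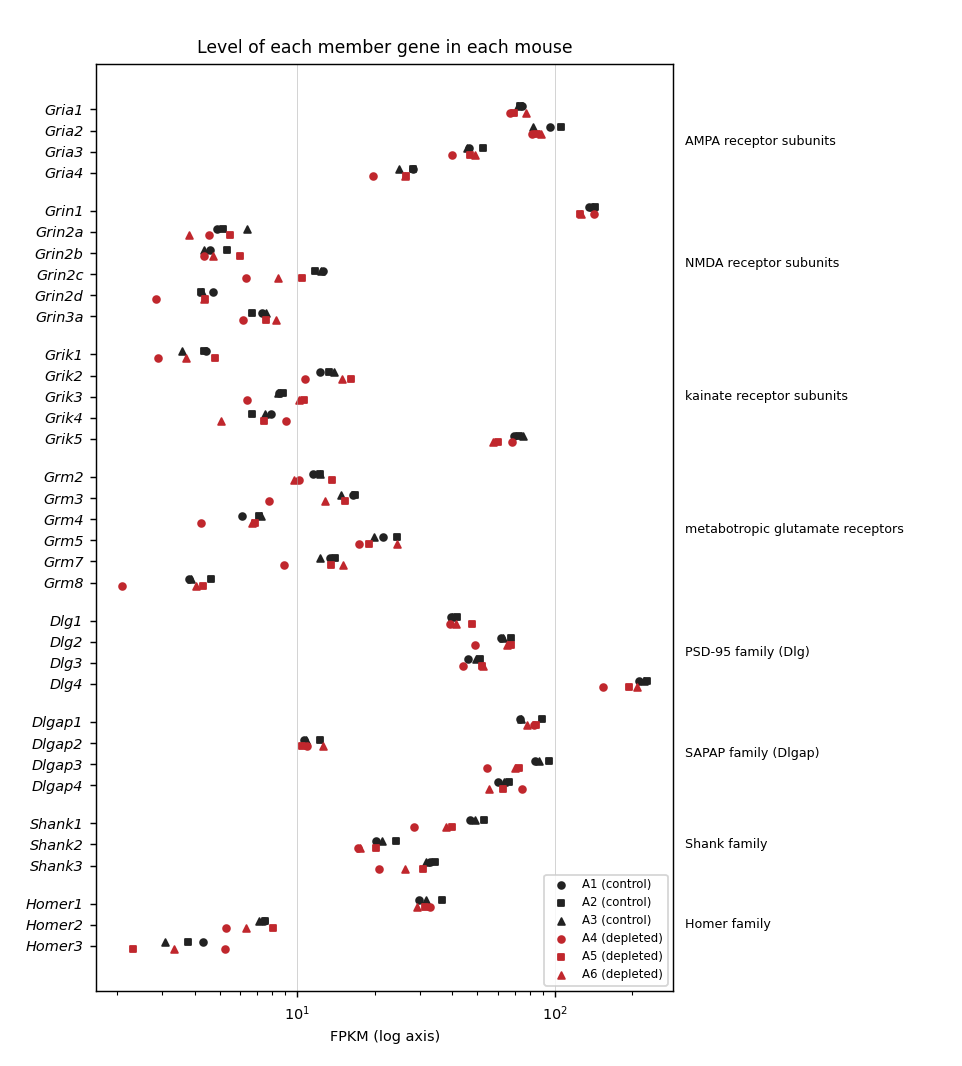
Level of each of the 35 members in each mouse, in FPKM on a log axis, with control mice in black and depleted mice in red. Dlg4 and Grin1 were the highest members, and the red points of Shank1, Dlgap3 and Grin2c lie left of all the black ones.

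Levels spanned a wide range. In control mice 2 members averaged at least 100 FPKM, Dlg4 at 221 ± 8.13 and Grin1 at 140.0 ± 4.12 (SD, n = 3), and 11 members averaged under 10 FPKM. Homer3 was the lowest, at 3.73 ± 0.622 FPKM, with about 42 fragments behind its value in the shallowest case, which alone gives a counting error of 15.3%. For the other members the counting error in the mouse with the fewest fragments was at most 8.94%, at Grik1. These figures cover counting error only and rest on the longest annotated transcript.

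The 4 AMPA receptor genes were each lower on average, and in none did the groups separate. Gria2, which encodes the subunit that makes the channel impermeable to calcium, was the highest of them. It measured 96.1, 106 and 82.1 FPKM across A1 to A3 and 81.8, 85.3 and 88.5 FPKM across A4 to A6. The lowest control mouse fell within the range of the depleted mice, and the log2 fold change was -0.14 (SE 0.097, limma adjusted p = 0.627). Gria1, the other main subunit of pyramidal cells, ran from 72.1 to 74.4 FPKM in control and from 66.8 to 77.5 FPKM in depleted mice. Gria3 ran from 45.5 to 52.6 and from 39.9 to 49.1 FPKM, and Gria4 from 24.9 to 28.2 and from 19.7 to 26.4 FPKM. A4 gave the lowest value of all 6 mice for each of the 4 genes, and without A4 their log2 fold changes lay between -0.11 (Gria2) and 0.0014 (Gria1). Gria2 made up 38.8% ± 2.10 of the summed AMPA receptor FPKM in control and 37.8% ± 1.36 in depleted mice (SD, n = 3), so the make-up of the family overlapped between the groups.

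Of the 6 NMDA receptor genes, Grin2c stood out. It encodes the GluN2C subunit, which gives channels with weak magnesium block and which in the forebrain is found in astrocytes and some interneurons and thalamic cells. Grin2c measured 12.6, 11.7 and 12.4 FPKM across A1 to A3 and 6.33, 10.5 and 8.45 FPKM across A4 to A6. All depleted mice lay below all control mice, with a log2 fold change of -0.51 (SE 0.16, limma adjusted p = 0.378). Without A4 the estimate was -0.34. As a share of all NMDA receptor FPKM, Grin2c was 7.04% ± 0.395 in control and 5.29% ± 1.40 in depleted mice (SD, n = 3), again without overlap between the groups. How often shares or sums within other gene families separate was not counted, here or for the families below.

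Grin1, the obligatory subunit of every NMDA receptor, measured 135, 144 and 141 FPKM across A1 to A3 and 141, 125 and 126 FPKM across A4 to A6. Here A4 lay within the control range while A5 and A6 lay below it, and the log2 fold change was -0.10 (SE 0.073, adjusted p = 0.654). Leaving out A4 took Grin1 to -0.16 and its unadjusted p below 0.05, whereas with a trend on GC content removed from each mouse it was -7.1e-05.

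The principal GluN2 subunits of the cortex, Grin2a and Grin2b, differed in opposite directions on average and overlapped between the groups. Grin2a ran from 4.88 to 6.37 FPKM in control and from 3.79 to 5.51 FPKM in depleted mice, and Grin2b from 4.34 to 5.35 and from 4.37 to 5.99 FPKM. The log2 ratio of Grin2a to Grin2b, which needs no scaling between libraries, averaged 0.20 in control and -0.13 in depleted mice, a difference of -0.32 (exact two-sided permutation p = 0.2, adjusted p = 0.4 over 8 ratios). The difference was -0.14 without A3. With 3 mice against 3 the smallest p this test can give is 0.1. A trend on GC content does not cancel in a ratio of genes with unlike GC content, and none of the 8 ratios was corrected for it. Grin2d, a subunit of interneurons, was lowest in A4 at 2.84 FPKM and lay between 4.22 and 4.72 FPKM in the other 5 mice. Grin3a, which lowers calcium flow through the receptor, ran from 6.68 to 7.57 and from 6.16 to 8.27 FPKM. Summed over the 6 genes, NMDA receptor transcripts amounted to 174 ± 3.87 FPKM in control and 160.0 ± 5.01 FPKM in depleted mice (SD, n = 3) and the groups did not overlap, with Grin1 supplying most of the sum.

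Among the kainate receptor genes Grik5, encoding the auxiliary high-affinity subunit GluK5, made up most of the family's transcripts. It measured 69.3, 72.9 and 74.9 FPKM across A1 to A3 and 67.9, 59.9 and 57.6 FPKM across A4 to A6. The groups did not overlap, although A4 came within 1.43 FPKM of the lowest control mouse. The log2 fold change was -0.23 (SE 0.082, limma adjusted p = 0.411), and it was larger, at -0.30, without A4. Grik2 and Grik3, which encode pore-forming subunits, ordered the depleted mice the other way. Grik2 measured 12.3, 13.3 and 13.8 FPKM across A1 to A3 and 10.7, 16.2 and 14.95 FPKM across A4 to A6, and Grik3 measured 8.49, 8.85 and 8.45 FPKM and 6.4, 10.6 and 10.2 FPKM. In both genes A4 was the lowest of the 6 mice and A5 and A6 were the highest. Over all mice their log2 fold changes were 0.06 and 0.04, and without A4 they were 0.23 and 0.25, each with an unadjusted p under 0.05. Grik1 overlapped between the groups at 3.58 to 4.42 and 2.88 to 4.81 FPKM, and Grik4 at 6.71 to 7.93 and 5.05 to 9.09 FPKM. Summed kainate receptor transcripts were 106 ± 2.94 FPKM in control and 95.8 ± 3.90 FPKM in depleted mice (SD, n = 3), without overlap. The log2 ratio of Grik2 to Grik5 averaged -2.46 ± 0.03 in control and -2.17 ± 0.43 in depleted mice (SD, n = 3, exact permutation p = 0.4, adjusted p = 0.533), and the difference of 0.30 was 0.55 without A4 and 0.16 without A5.

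All 6 metabotropic receptor genes were lower on average, none at an unadjusted p under 0.05. Grm5, the main group I receptor of cortical neurons, was the highest of them, at 21.5, 24.5 and 19.9 FPKM across A1 to A3 and 17.3, 18.9 and 24.4 FPKM across A4 to A6. A6 lay close to the highest control mouse while A4 and A5 lay below all of them, and the log2 fold change was -0.12 (SE 0.13, adjusted p = 0.771). Grm3, a group II receptor strongly expressed by astrocytes, had the largest average difference of the family. It measured 16.4, 16.8 and 14.7 FPKM across A1 to A3 and 7.78, 15.3 and 12.8 FPKM across A4 to A6. A5 lay inside the control range, and the log2 fold change of -0.43 (SE 0.20, limma adjusted p = 0.502) was -0.17 without A4. Grm2, the other group II receptor, ran from 11.6 to 12.3 and from 9.70 to 13.7 FPKM, and the log2 ratio of Grm2 to Grm3 differed by 0.35 (exact permutation p = 0.2, adjusted p = 0.4), or by 0.12 without A4. The group III receptors Grm4, Grm7 and Grm8, which lower transmitter release, were each lowest in A4, at 4.24, 8.87 and 2.10 FPKM. In the other 5 mice they lay between 6.11 and 7.22 FPKM, between 12.3 and 15.1 FPKM, and between 3.80 and 4.63 FPKM. Without A4 their log2 fold changes were -0.0081, 0.10 and 0.03.

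Within the PSD-95 family Dlg4, which encodes PSD-95 itself, was the only gene of 4 that was lower at an unadjusted p under 0.05. Dlg4 measured 212, 228 and 222 FPKM across A1 to A3 and 154, 194 and 208 FPKM across A4 to A6. The groups did not overlap, though A6 lay within 3.43 FPKM of A1. The log2 fold change was -0.26 (SE 0.11, limma adjusted p = 0.464), and without A4 it was -0.13, with an unadjusted p above 0.05. Dlg1, encoding SAP97, ran from 39.4 to 41.5 FPKM in control and from 39.2 to 47.7 FPKM in depleted mice. Dlg2, encoding PSD-93, ran from 61.8 to 67.5 and from 49.2 to 67.3 FPKM, and Dlg3, encoding SAP102, from 46.1 to 51.4 and from 44.0 to 52.7 FPKM. As a share of the family, Dlg4 was 59.0% ± 0.271 in control and 54.7% ± 1.70 in depleted mice, while Dlg1 was 10.8% ± 0.158 and 12.7% ± 1.33 and Dlg3 was 13.1% ± 0.212 and 14.7% ± 0.584 (SD, n = 3). None of these 3 shares overlapped between the groups. The log2 ratio of Dlg4 to Dlg2 was 1.78, 1.76 and 1.81 across A1 to A3 and 1.64, 1.53 and 1.67 across A4 to A6. It was lower in each depleted mouse, with A5 the lowest, and had a mean difference of -0.17 (exact permutation p = 0.1, the smallest possible, and adjusted p = 0.4 over 8 ratios).

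**Figure D2:**
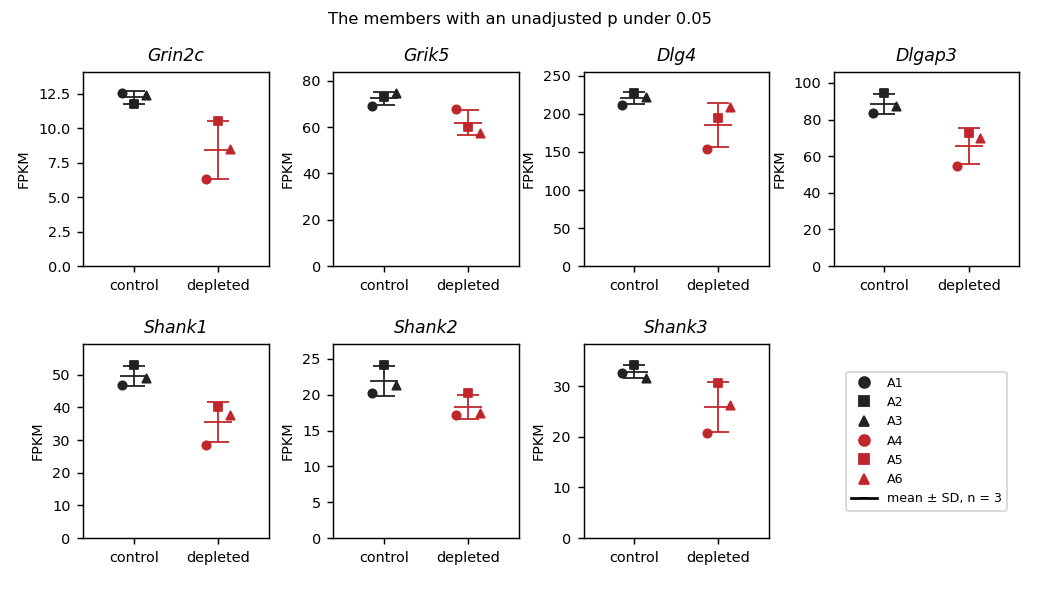
FPKM of the 7 members with an unadjusted p under 0.05, one panel each with the axis starting at 0, for control (black) and depleted (red) mice, with bars at the mean ± SD (n = 3). The red points lie below the black ones in every panel but Shank2, where A1 and A5 share a value of 20.18 FPKM, and A4 is the lowest red point in all panels except Grik5.

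SAPAP genes showed a similar split. Dlgap3, which encodes the SAPAP3 protein of corticostriatal synapses, measured 83.7, 94.7 and 87.2 FPKM across A1 to A3 and 54.5, 72.7 and 70.0 FPKM across A4 to A6. Every depleted mouse lay below every control mouse by at least 11.1 FPKM, and the log2 fold change was -0.43 (SE 0.11, limma adjusted p = 0.370), or -0.31 without A4. Dlgap1, nearly as abundant, ran from 73.5 to 89.5 FPKM in control and from 78.3 to 84.7 FPKM in depleted mice and had a log2 fold change of 0.06. Dlgap2 ran from 10.6 to 12.2 and from 10.4 to 12.6 FPKM. Dlgap4 ran from 60.3 to 66.5 and from 55.6 to 74.6 FPKM, with A4 the highest of all mice. Dlgap3 accounted for 36.6% ± 0.497 of SAPAP transcripts in control and 29.4% ± 4.37 in depleted mice, and Dlgap1 for 32.5% ± 1.35 and 36.7% ± 0.568 (SD, n = 3). Neither share overlapped between the groups, and Dlgap3 was the leading SAPAP transcript in each control mouse and Dlgap1 in each depleted mouse. Transcripts of Dlgap3 were 64.5% G and C and those of Dlgap1 51.7%. The part of GC content in this switch was not tested, and no rate of separation was taken for other shares.

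The Shank genes were the family in which each member was lower at an unadjusted p under 0.05. Shank1, a scaffold concentrated in cortical and hippocampal spines, measured 46.9, 53.0 and 49.0 FPKM across A1 to A3 and 28.5, 40.0 and 37.7 FPKM across A4 to A6. The groups did not overlap, and the log2 fold change was -0.49 (SE 0.13, limma adjusted p = 0.370), or -0.34 without A4. Shank3, the scaffold lost in Phelan-McDermid syndrome, measured 32.6, 34.2 and 31.6 FPKM across A1 to A3 and 20.8, 30.7 and 26.2 FPKM across A4 to A6. A5 came within 0.91 FPKM of A3 without crossing it, and the log2 fold change was -0.35 (SE 0.13, adjusted p = 0.432), or -0.20 without A4. Shank2 measured 20.2, 24.2 and 21.3 FPKM across A1 to A3 and 17.2, 20.2 and 17.5 FPKM across A4 to A6, with a log2 fold change of -0.25 (SE 0.10, adjusted p = 0.451). Its groups met at A1 and A5, and without A4 its unadjusted p was above 0.05. Summed Shank transcripts were 104 ± 6.23 FPKM in control and 79.6 ± 12.3 FPKM in depleted mice (SD, n = 3), a log2 ratio of means of -0.39, the largest of the 8 families.

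Homer genes overlapped between the groups throughout. Homer1, whose long forms cross-link Shank and mGluR5, measured 29.6, 36.5 and 31.5 FPKM across A1 to A3 and 32.8, 31.3 and 29.3 FPKM across A4 to A6, with a log2 fold change of -0.06 (SE 0.096, limma adjusted p = 0.858). Its long and short forms are not separated in a gene-level table. Homer2 ran from 7.12 to 7.48 and from 5.29 to 8.03 FPKM, and Homer3 from 3.08 to 4.32 and from 2.31 to 5.24 FPKM. The log2 ratio of Homer1 to the summed Shank genes was -1.75, -1.61 and -1.69 in control mice and -1.02, -1.54 and -1.48 in A4, A5 and A6. It was higher in each depleted mouse, by 0.34 on average and by 0.18 without A4 (over all mice, exact permutation p = 0.1, adjusted p = 0.4 over 8 ratios). The remaining 3 ratios overlapped between the groups: Gria1 to Gria2 differed by 0.10 (adjusted p = 0.571), Gria3 to Gria2 by 0.05 (adjusted p = 0.8) and summed Grin2 genes to Grin1 by -0.21 (adjusted p = 0.533), or -0.023 without A4.

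**Figure D3:**
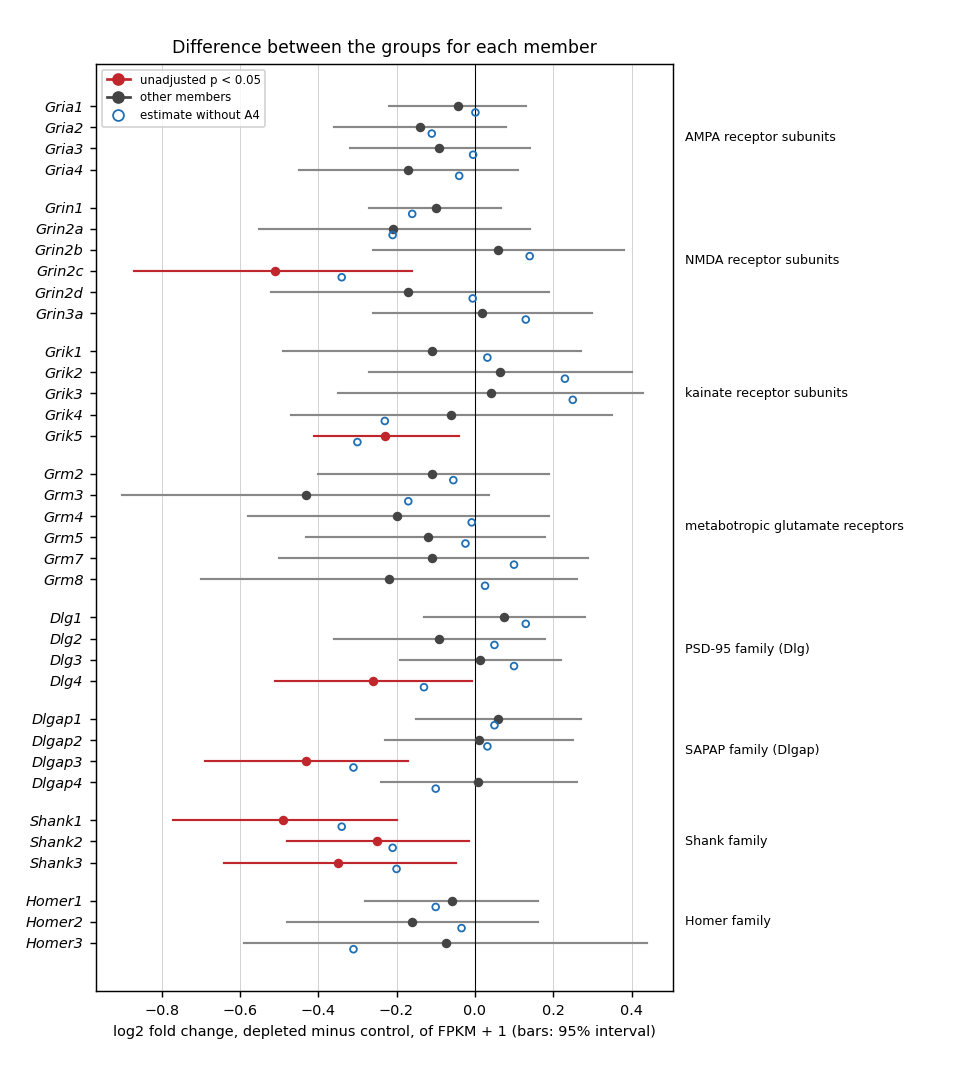
Log2 fold change of each member, depleted minus control, on the scale of FPKM + 1, with its 95% interval; red marks an unadjusted p under 0.05 and open blue circles give the estimate without A4. Estimates ran from -0.51 (Grin2c) to 0.075 (Dlg1), and without A4 those of the 3 Shank genes, Dlgap3 and Grin2c stayed below 0.

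Promoter sequences from RefSeq covered 24 of the 35 genes (GRCm38.p6, 250 bases before to 50 bases after the annotated start, which is not the mm9 build of the deposited values). Of the 7 members listed above, the sequences of Grin2c, Dlgap3 and Shank3 are shown, since these genes had the largest differences among those with an entry, and to give the base composition that the next paragraph turns on. Capitals mark the GC box, GGGCGG or its reverse complement CCGCCC, searched on both strands, with overlapping matches counted. The window of Grin2c is chr11:115267194-115267493 on the minus strand, that of Dlgap3 is chr4:127172630-127172929 on the plus strand, and that of Shank3 is chr15:89499358-89499657 on the plus strand.
Grin2c: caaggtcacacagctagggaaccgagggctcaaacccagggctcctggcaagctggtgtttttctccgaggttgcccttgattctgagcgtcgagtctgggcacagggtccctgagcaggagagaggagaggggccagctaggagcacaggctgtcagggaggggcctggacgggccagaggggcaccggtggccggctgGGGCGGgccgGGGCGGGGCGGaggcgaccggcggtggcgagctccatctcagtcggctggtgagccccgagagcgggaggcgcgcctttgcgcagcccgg
Dlgap3: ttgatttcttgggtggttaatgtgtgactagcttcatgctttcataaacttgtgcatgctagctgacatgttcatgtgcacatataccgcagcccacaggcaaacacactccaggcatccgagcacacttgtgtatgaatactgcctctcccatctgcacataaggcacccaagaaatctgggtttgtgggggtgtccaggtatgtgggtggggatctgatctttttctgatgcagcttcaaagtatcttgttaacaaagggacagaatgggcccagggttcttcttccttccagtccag
Shank3: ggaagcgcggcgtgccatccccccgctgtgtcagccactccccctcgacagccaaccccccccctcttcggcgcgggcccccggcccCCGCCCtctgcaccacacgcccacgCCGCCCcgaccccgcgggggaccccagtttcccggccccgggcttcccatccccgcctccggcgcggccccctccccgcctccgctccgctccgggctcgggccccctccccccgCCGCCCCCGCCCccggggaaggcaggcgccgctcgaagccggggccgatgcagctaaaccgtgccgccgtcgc

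The windows of Grin2c and Shank3 held 3 and 4 matches and were 70.0% and 81.0% G and C, and that of Dlgap3 held 0 matches and was 47.7% G and C. Of all 32851 promoters, 35.7% held the motif, and among 38 promoters of the members 47.4% did. The median promoter was 52.7% G and C over all promoters and 60.8% among those of the members. The part of this in the motif counts was not tested. A match is a description of letters in the window and was not tied to the fold changes.

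The fold change of the members went with the GC content of their transcripts. Of the 6 members whose annotated transcripts were at least 60% G and C, 5 were lower at an unadjusted p under 0.05 (Grin2c, Grik5, Dlgap3, Shank1 and Shank3) and the other, Grin2d, had a log2 fold change of -0.17. Their median was -0.39. Over the 605 genes tested in that GC range the median was -0.16, and 23.6% were lower at that p. In the 17 members under 50% the median log2 fold changes were -0.091 (under 45%) and -0.12 (45 to 50%), whereas all genes in those ranges had a median of 0.029. Pearson's r between GC content and log2 fold change was -0.46 across the 35 members and -0.18 across 14251 genes; genes are not independent replicates, they share the 6 libraries, and the values are a description. When a smooth trend on GC content was removed from each mouse, 2 members (5.71%, against 3.88% of all genes) were lower at an unadjusted p under 0.05. They were Grin2c (log2 fold change -0.36) and Shank1 (-0.32). In 3 members (8.57%, against 7.47% of all genes) every depleted mouse then lay below every control mouse. Dlgap3 was then at -0.24, Shank3 at -0.18 and Grik5 at -0.09, while the median of the members was -0.086. The part of GC content in these differences was not otherwise tested.

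**Figure D4:**
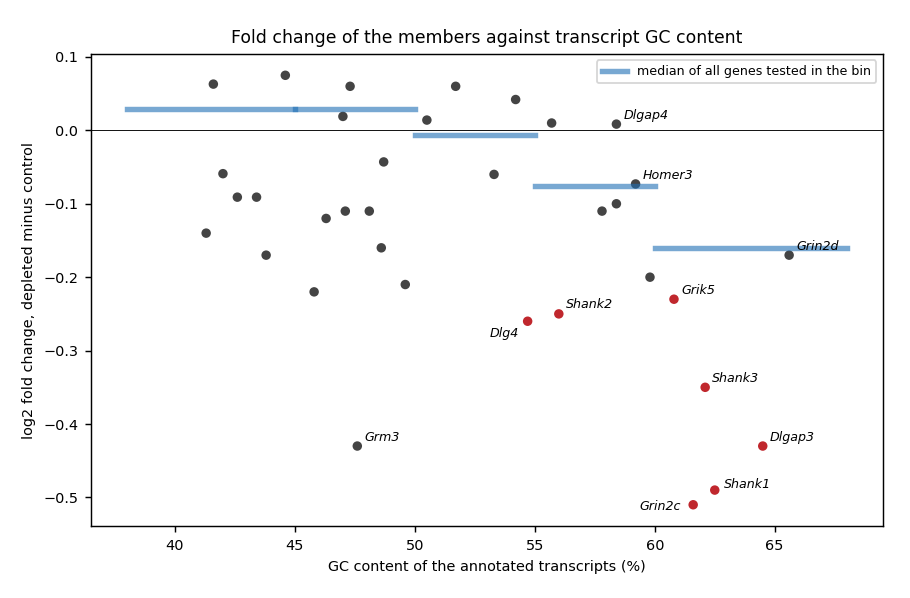
Log2 fold change of the 35 members against the GC content of their annotated transcripts in percent, with members at an unadjusted p under 0.05 in red; blue bars give the median of all genes tested in each GC range. The bars step down from 0.029 to -0.16, and 5 of the 6 members at or above 60% lie below the last bar as red points.

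A4 carried much of the average difference. It was the lowest of the 6 mice in 24 of the 35 members, against 3 for A5 and 6 for A6, and the median member lay -0.27 from the control mean in A4, -0.02 in A5 and -0.08 in A6 on the log2 scale. Over all genes tested these medians lay between -0.0097 and -0.00098 in the 3 depleted mice. On the control side A2 was the highest mouse in 14 members, and the median member lay 0.06 above the control mean there. Without A4, 22 members were lower on average (62.9%, against 52.1% of all genes) and 13 higher, with a median of -0.034. Then 6 members were lower at an unadjusted p under 0.05 (Grin1, Grin2c, Grik5, Dlgap3, Shank1 and Shank3; 7.19% of all genes) and 2 were higher (Grik2 and Grik3; 5.99% of all genes). For Gria3, Gria4, Grm4 and Dlg2 the estimate without A4 lay between -0.04 and 0.05. Both A5 and A6 lay below every control mouse in 7 members (20.0%, against 15.7% of all genes). These were Grin1, Grin2c, Grik5, Dlg4, Dlgap3, Shank1 and Shank3. Both lay above every control mouse in 4 members (Grin3a, Grik2, Grik3 and Dlg3), as they did in 2092 of the 14385 genes tested.

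**Figure D5:**
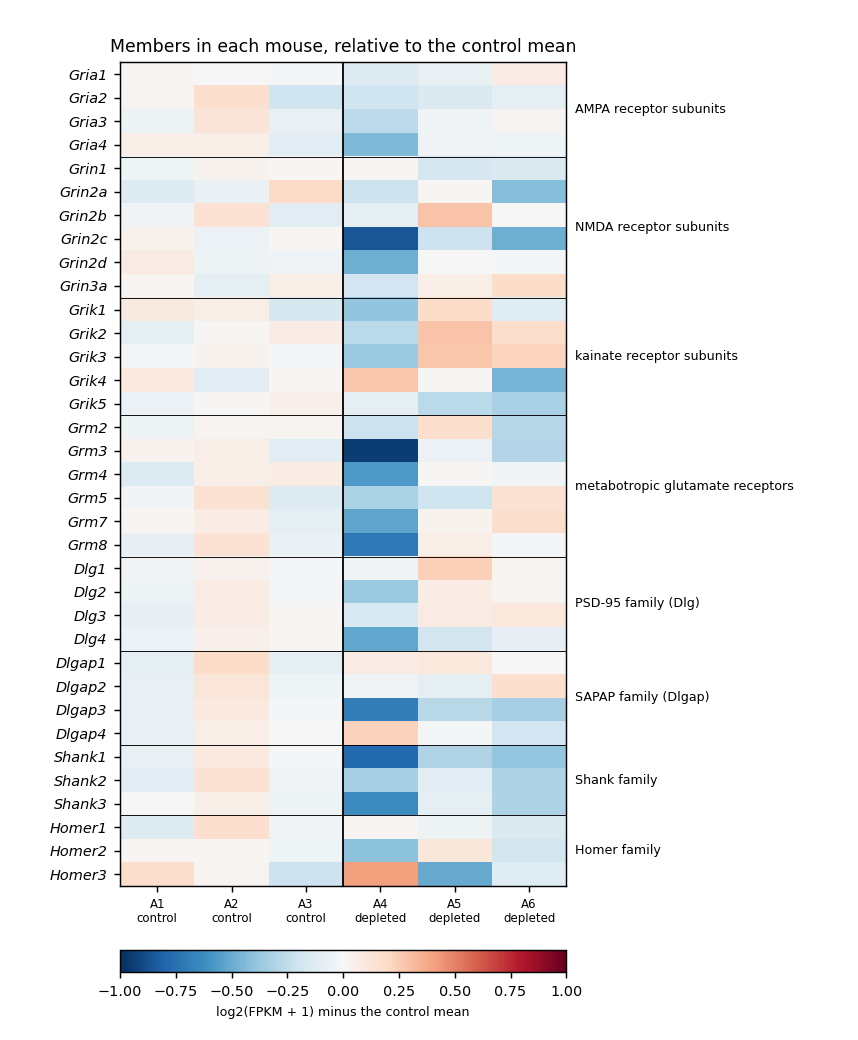
Log2(FPKM + 1) of each member in each mouse minus the mean of the control mice, in blue where lower and red where higher, with families separated by lines. The A4 column is the most uniformly blue (median -0.27), and the rows of Dlgap3, Shank1, Shank3 and Grin2c are blue in all 3 depleted mice.

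Other genes of the glutamatergic synapse were counted in 5 lists. Of all genes tested 52.0% were lower on average. Among 16 auxiliary subunits, which set receptor gating and surface delivery, 11 were lower on average with a median log2 fold change of -0.15, and 4 (Cacng3, Cacng7, Cacng8 and Cnih2) were lower at an unadjusted p under 0.05 (25.0%, against 5.74% of all genes tested). Cacng7, a TARP, was the lowest of the list at -0.34 (SE 0.11, limma adjusted p = 0.396). Without A4 the median of the list was -0.0028, and with the trend on GC content removed it was -0.12. Transcripts of Cacng8 and Cnih2 were 64.1% and 61.8% G and C, a range in which 23.6% of all genes were lower at that p. Those of Cacng7 were 57.3% (11.8% of all genes at 55 to 60%) and those of Cacng3 54.0% (4.29% at 50 to 55%). Of 16 trafficking and anchoring genes 8 were lower, with a median of -0.00037, and 2 (Nptxr and Lin7b, 12.5%) were lower at that p. The extreme was Nptxr, the neuronal pentraxin receptor that clusters AMPA receptors, at 80.4, 79.2 and 76.7 FPKM across A1 to A3 and 41.9, 64.6 and 46.0 FPKM across A4 to A6. Its log2 fold change was -0.65 (SE 0.14, limma adjusted p = 0.337), larger than that of any member, and -0.52 without A4. Transcripts of Nptxr and Lin7b were 59.3% and 58.7% G and C. In that range 11.8% of all genes were lower at an unadjusted p under 0.05. Nptx1, the partner of Nptxr, was the highest of the list at 0.20, or 0.064 without A4.

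Among 15 postsynaptic signalling genes tested 9 were lower, 1 of them (Ppp1r9b, 6.67%) at an unadjusted p under 0.05. The list ran between Ppp1r9b at -0.20, which encodes the spine protein spinophilin, and its relative Ppp1r9a, encoding neurabin, at 0.15. In the adhesion list 12 of 16 were lower, with Lrrc4b and Adgrb1 (12.5%) lower and Adgrb3 higher at an unadjusted p under 0.05. Lrrc4b, a ligand of presynaptic receptor phosphatases, was at -0.33 (SE 0.091, limma adjusted p = 0.370) and Adgrb3 at 0.27 (SE 0.086, adjusted p = 0.387), and the groups did not overlap in either gene. Glutamate transporters were lower in 4 of 8, from Slc17a6 at -0.31 (-0.17 without A4) to Slc1a6 at 0.19, and 0 of them had an unadjusted p under 0.05 in limma. Transcripts of Ppp1r9b, Lrrc4b and Adgrb1 were 60.2%, 64.0% and 63.0% G and C, again where 23.6% of all genes were lower at that p. The part of GC content in these lists was not tested. No gene of the 5 lists passed an adjusted p of 0.1.

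Markers of other cells and regions were summed for each mouse, and the sums separated the groups in 5 of 14 lists. Among single genes tested, 9.38% were lower and 8.21% higher without overlap. No such share was taken for sums, so it is not known how often sums of other genes separate. Counts of genes lower on average stand beside 52.0% of all genes tested. Summed pan-neuronal markers, Rbfox3 and Snap25 among them, overlapped at 3052 to 3299 FPKM in control and 2912 to 3319 FPKM in depleted mice, with 6 of 10 genes lower. Excitatory neuron markers, 6 of 8 lower and including Slc17a7 and Neurod6, overlapped at 1074 to 1248 and 1069 to 1129 FPKM, and inhibitory markers, 3 of 8 lower and including Gad1 and Gad2, at 648 to 664 and 555 to 650 FPKM. Layer IV markers were lower in 5 of 6, with sums of 57.0 to 61.5 and 46.1 to 59.5 FPKM. Rspo1, a layer IV gene, was at 4.72, 5.04 and 4.46 FPKM across A1 to A3 and 1.77, 3.5 and 3.48 FPKM across A4 to A6. Its log2 fold change was -0.59, or -0.35 without A4. Its transcripts were 60.3% G and C, a range in which 23.6% of all genes were lower at an unadjusted p under 0.05. Scnn1a and Whrn were also lower without overlap. Rorb, Cux2 and Kcnab3 overlapped between the groups, and Kcnab3 was higher on average, at 0.13.

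Oligodendrocyte precursor markers, which include Pdgfra and Cspg4, were lower in 7 of 7 and summed to 102 to 115 FPKM in control and 73.7 to 91.1 FPKM in depleted mice. Oligodendrocyte markers such as Mbp were lower in 8 of 8, at 2976 to 3242 and 2606 to 2698 FPKM. Thalamic markers, with Tcf7l2 and Prkcd among them, were lower in 7 of 8, at 82.9 to 99.9 and 67.2 to 80.4 FPKM. Choroid plexus markers were lower in 8 of 8, at 171 to 327 and 47.4 to 72.8 FPKM, most of it Ttr, and Folr1 was near 0 in A4 and A5. Endothelial markers, Cldn5 and Pecam1 among them, were higher in 6 of 7, at 43.4 to 49.3 and 51.9 to 54.8 FPKM.

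Sums overlapped for microglia (138 to 166 and 152 to 224 FPKM, 4 of 10 lower), in which P2ry12 ran from 8.50 to 10.2 and from 6.45 to 7.91 FPKM and Tmem119 overlapped. They also overlapped for astrocytes (1180.0 to 1321 and 1186 to 1295 FPKM, 6 of 8 lower), where Gfap ran from 64.5 to 88.3 and from 109 to 300 FPKM and Aqp4 overlapped, and for striatal markers (352 to 405 and 333 to 413 FPKM, 6 of 8 lower, with Drd1 and Drd2 both overlapping). Hippocampal sums, 6 of 8 lower, were 59.7 to 65.4 FPKM in control mice and 90.9 FPKM in A4 against 58.1 and 59.4 FPKM in A5 and A6, with Prox1 and Zbtb20 under 2.5 FPKM in each mouse. Olfactory bulb and cerebellar markers, 5 of 6 tested lower and with Gabra6 and Eomes under 2 FPKM in each mouse, overlapped at 48.6 to 85.7 and 64.4 to 68.6 FPKM. The control mouse A1 had the highest sum, and its Gabra6 was at 1.99 FPKM against at most 0.5 FPKM in the other mice. The part of cell makeup and of the dissected region in the differences of the receptor and scaffold genes was not tested.

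Some values could include fragments of another gene, since the sources used here do not state whether counting used strand. In the GENCODE M21 annotation 25.4% of the exon bases of Homer3 are shared with Ddx49 on the opposite strand, itself at 15.2 FPKM in control and 14.4 FPKM in depleted mice, so the level of Homer3 is uncertain. Grin1 shares 13.5% with Grin1os, Grin2d 9.66% and Grm2 9.60% with other opposite-strand genes. For the genes with the largest differences the shared part was small, 3.22% in Shank1 (with 1700008O03Rik, at 0.717 and 1.14 FPKM), 2.95% in Shank3 and 1.81% in Grin2c, and Dlgap3, Dlg4, Grik5 and Shank2 shared none.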

How the data were processed

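Cortical RNA of 3 control and 3 depleted mice was measured, with 1 poly(A)-selected library each. Per the methods, the authors sequenced paired-end reads, quantified known transcripts and normalized by TMM. TopHat, RSEM, DESeq and mm9 stand in the submitters' processing notes, and tool versions are not given in the sources used here. The authors deposited FPKM per gene, rounded to 2 decimals, and no counts were used.

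The 14385 genes that averaged 0.5 FPKM or more, out of 23366 (4451 at 0 in every mouse), were taken to log2(FPKM + 1), a scale that understates changes of low genes, and the groups were fitted by limma 3.58.1 under R 4.3.3 (lmFit, then eBayes with trend), with Benjamini-Hochberg adjustment over all genes tested and an adjusted threshold of 0.1. No covariate was used, since the labels give no batch, litter or date. A limma p-value sets the difference between the groups against the spread of these 6 mice within their groups. That spread is moderated by a trend over all genes tested. For ratios within a mouse the exact permutation test, two-sided, was used. On simulated data with 200 changed genes the fit was tested first. Those changes were larger than the difference of any member and the simulation held no trend on GC content. It therefore does not show how the fit handles differences of the size seen here. Other steps used Python 3.11.15, numpy 2.4.6, pandas 2.3.3 and matplotlib 3.10.9.

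GC content and exon overlaps came from GENCODE M21, matched by symbol (22988 genes, 1256 by an older symbol; 99.1% of genes tested had a GC value). The number of fragments per mouse was estimated from the spacing of low FPKM values and of A5 is uncertain.

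The members, the gene lists and the tests were chosen with earlier results of these data known. Members whose groups did not overlap or whose unadjusted p was under 0.05, and the highest member of each family, were given mouse by mouse. Also named were Grm3, Grik2, Grik3, Nptxr, Lin7b, Adgrb1, Cacng3, Cacng8 and Cnih2, and of the layer IV genes Rspo1, Scnn1a, Whrn, Cux2 and Kcnab3. These were added after their values were seen. Of each pathway list the genes with the highest and the lowest log2 fold change were named, and of each cell type list the first 2 genes, except for some genes that are not reported here. The fit was repeated with each mouse left out, with scaling by TPM, by median of ratios or by quantiles, with a GC correction (lowess span 0.3), with array weights, with robust eBayes or eBayes without trend, with filters at 1 FPKM or none, and with 0.1 as pseudocount. Ratios were also taken of FPKM + 1.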

Additional observations from a re-analysis of the deposited data

How the results depend on the processing

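No member passed an adjusted p of 0.1 under any of the 16 alternatives, the lowest adjusted p of a member being 0.173, while between 2 and 29 genes of the table passed. Of 35 members, 18 had the same sign under all 16, 17 of them lower and Dlgap1 higher. Grin2c and Shank1 had an unadjusted p under 0.05 under each of the 16, Dlgap3 under 15, Shank3 under 13, Grik5 under 10, Shank2 under 9 and Dlg4 under 7. The number of members at that p, 7 in the fit reported, was 2 under the GC correction and 4 with eBayes without trend, and ran from 3 (without A2) to 8 (without A4, or without A5) when 1 mouse was left out. The median log2 fold change of the members, -0.11, ran from -0.17 (without A5) to -0.034 (without A4); the cause was not tested. Signs turned under the GC correction for Grin2d (0.042), Grin3a (-0.0097), Dlg3 (-0.00025) and Homer3 (0.041), and with array weights for Dlgap4 (-0.026). With 1 mouse left out, log2 fold changes that changed sign ran from -0.10 to 0.0014 (Gria1), -0.051 to 0.14 (Grin2b), -0.061 to 0.13 (Grin3a), -0.26 to 0.032 (Grik1), -0.048 to 0.23 (Grik2), -0.076 to 0.25 (Grik3), -0.23 to 0.14 (Grik4), -0.25 to 0.10 (Grm7), -0.36 to 0.026 (Grm8), -0.0051 to 0.13 (Dlg1), -0.17 to 0.05 (Dlg2), -0.033 to 0.10 (Dlg3), -0.065 to 0.069 (Dlgap2), -0.10 to 0.11 (Dlgap4), -0.12 to 0.024 (Homer1) and -0.31 to 0.14 (Homer3), all of members without an unadjusted p under 0.05 over the 6 mice. The 8 ratios kept their sign with FPKM + 1 and with each mouse left out, but their differences moved in size, from -0.44 to -0.14 for Grin2a to Grin2b (without A2, without A3), 0.017 to 0.19 for Gria1 to Gria2 (A2, A3), 0.011 to 0.11 for Gria3 to Gria2 (A1, A3 or A4), -0.38 to -0.023 for summed Grin2 to Grin1 (A5, A4), 0.12 to 0.52 for Grm2 to Grm3 (A4, A6), -0.20 to -0.12 for Dlg4 to Dlg2 (A6, A5), 0.18 to 0.44 for Homer1 to summed Shank (A4, A5) and 0.16 to 0.55 for Grik2 to Grik5 (A5, A4). No paired analysis was possible because the groups share no replicate numbers. Depth limits the low members most, Homer3 above all, and 3 mice a group leave intervals with a median width of 0.57 on the log2 scale.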
